A study of Mus musculus with 16 samples.

Results

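The 37 genes described here mark lymphocytes, and their RNA was read in 16 libraries of mouse liver cells that were sorted or centrifuged for other cell types. The members were taken by symbol from a list of 37 among the 47729 genes counted, and each symbol matched 1 gene. They comprise 14 genes of T cells, 10 genes of natural killer (NK) cells and cytotoxic lymphocytes, and 13 genes of B cells and plasma cells. The libraries came from endothelial cells (ECs), hepatic stellate cells (HSCs), Kupffer cells and hepatocytes of adult mice with unchallenged livers, each genotype label of a cell type having 2 libraries (n = 2). Mice labelled KO carried Zeb2 alleles with a floxed exon 7 together with Cdh5-CreERT2, a tamoxifen-inducible recombinase driven by an endothelial promoter, on an R26R CAG-eGFP reporter background. Controls labelled WT were littermates without Cre. All mice received tamoxifen at 2 mg per day for 5 days, the controls included. Libraries are named by cell type, genotype label and the number in the label, such as EC WT 38.

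T cells recognize antigen through a receptor whose alpha and beta (or gamma and delta) chains sit in a complex with the CD3 proteins, and Lck and Zap70 are the kinases that carry the signal on to the adaptor Lat. NK cells and cytotoxic T cells kill target cells with perforin and granzymes, and both depend on interleukins that are read through Il2rb, the beta chain of the receptors for interleukin 2 and interleukin 15. B cells carry an immunoglobulin on their surface that signals through Cd79a and Cd79b, and plasma cells secrete it, joined by Jchain when it is IgM or IgA. The liver holds all of these lymphocytes, many of them in the lumen of the sinusoids, the vessels that ECs line and in which Kupffer cells sit. None of the sorts selected for lymphocytes. ECs were taken as Pan-endo+ cells without the ultraviolet autofluorescence of HSCs, Kupffer cells as F4/80+ cells, HSCs by that autofluorescence, and hepatocytes by centrifugation.

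Depth was alike across the libraries, at 12872706 to 15690506 reads on genes, and levels are given as CPM, the count scaled to the same total in every library. A count of 3, the smallest level taken as detectable, stood at 0.191 to 0.233 CPM. Markers of each labelled cell type were highest in its own libraries, and the median marker of the other 3 cell types stayed at or below 22.5% of its own level, a share that was reached by hepatocyte markers in EC WT 38. Zeb2 itself was not lower in the ECs labelled KO, at 106, 106, 199 and 130.1 CPM in EC WT 34, WT 38, KO 6 and KO 46, a count over the whole gene to which reads outside the floxed exon also add. All genotype comparisons are therefore between labels. EC WT 38 stood apart for lymphocyte RNA, as it was the highest of the 16 libraries for 27 of the 37 members. Scaling by the trimmed mean of M values (TMM), which the tests use, lowered EC levels and raised hepatocyte levels against plain CPM, and shifted the median gene by 1.17 on the log2 scale for hepatocytes against the other cell types and by 0.31 for Kupffer cells against ECs.

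Summed over each class, lymphocyte RNA had its highest mean in ECs and its next in Kupffer cells, although the libraries of these cell types overlapped for all 3 classes. For the sum of all 14 T members this order rested on EC WT 38, since the EC mean was 125 CPM with it and 89.3 CPM without it, against 92.2 CPM in Kupffer cells. The B cell mean of ECs likewise moved from 513 to 307 CPM without EC WT 38, against 297 CPM in Kupffer cells. Cd4, described below, made up much of the T sum in Kupffer cells. Without Zap70 and Cd4 the T sum was 83.7, 196, 64.9 and 53.5 CPM in EC WT 34, WT 38, KO 6 and KO 46. It was 44.7, 51.4, 53.6 and 33.8 CPM in KC WT 31, WT 39, KO 27 and KO 43, with means of 99.6 CPM in ECs and 45.9 CPM in Kupffer cells. The 14 T cell members summed to 107.6, 233, 78.5 and 81.7 CPM in EC WT 34, WT 38, KO 6 and KO 46, and in this order of labels (WT, WT, KO, KO) to 63.8, 102, 122 and 81.1 CPM in Kupffer cells, 37.5, 28.2, 12.1 and 14.9 CPM in HSCs and 20.0, 14.1, 36.7 and 22.8 CPM in hepatocytes. The 10 NK and cytotoxic members summed to 109, 182, 37.9 and 35.5 CPM in ECs, 55.9, 28.4, 41.3 and 37.5 CPM in Kupffer cells, 36.1, 21.0, 8.16 and 0.277 CPM in HSCs and 0.829, 3.48, 1.74 and 0.741 CPM in hepatocytes. The 13 B cell members summed to 389, 1128, 280.2 and 252 CPM in ECs, 187, 320.3, 401 and 279 CPM in Kupffer cells, 81.8, 67.6, 22.7 and 157 CPM in HSCs and 7.90, 9.61, 25.9 and 12.6 CPM in hepatocytes. HSCs and hepatocytes overlapped for all 3 sums as well but for the T class only with Zap70 and Cd4 in the sum. Without these 2 genes the T sum was 34.9, 21.0, 11.1 and 11.6 CPM in HSCs and 1.59, 1.36, 0.709 and 1.48 CPM in hepatocytes, with no overlap between the cell types. The WT and KO labels did not overlap in ECs for any of the 3 sums, with KO lower, whereas they overlapped in Kupffer cells for all 3. In HSCs they did not overlap for the T and NK members, again with KO lower, but overlapped for the B members, and in hepatocytes the T and B sums lay higher under the KO label without overlap. The labels overlapped in hepatocytes for the T sum without Zap70 and Cd4. In bulk RNA, fewer lymphocytes and less RNA per lymphocyte cannot be told apart. These are sums over genes of unequal length, in which the 5 immunoglobulin members Ighm, Ighd, Ighg1, Igkc and Jchain made up 51.0% to 62.9% of the members' reads in ECs and 40.8% to 49.8% in Kupffer cells. Without these 5 genes the B cell sum had a mean of 87.6 CPM in ECs and 96.9 CPM in Kupffer cells, so that the order of the 2 cell types turned. That turn came from Cd22 and Cd79b, with means of 50.3 and 30.7 CPM in Kupffer cells and 10.6 and 20.6 CPM in ECs. The remaining genes of this sum, Cd79a, Ms4a1, Pax5, Blk, Mzb1 and Tnfrsf13c, each had their highest mean in ECs.

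**Figure D1:**
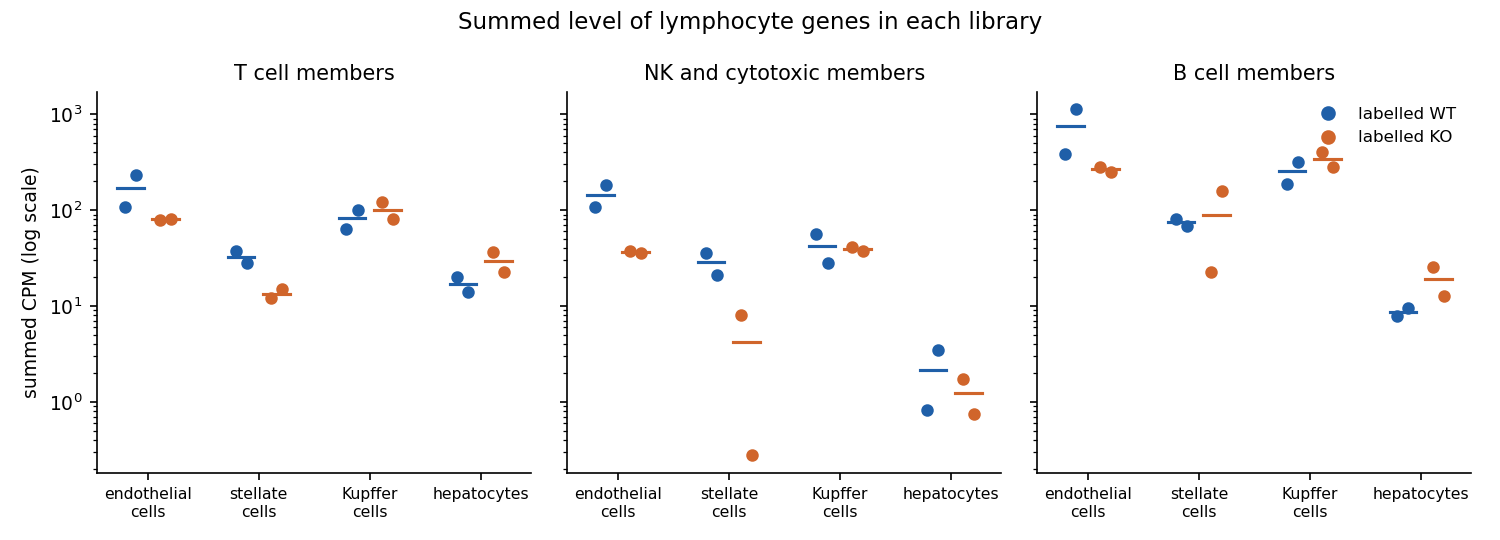
Summed CPM on a log scale of the T, NK and B cell members in each library, by cell type, with points for libraries labelled WT or KO and a bar for the mean of each pair. The NK members of the EC libraries labelled KO lay at 37.9 and 35.5 CPM, below both EC libraries labelled WT, and HSC KO 20 held 0.277 CPM of them.

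The receptor complex of T cells was read at low levels. Cd3e (ENSMUSG00000032093, chr9:44998740-45009627 in GRCm38), the epsilon chain of CD3, had 7.19 and 16.0 CPM in the ECs labelled WT against 4.94 and 4.66 CPM in those labelled KO, 4.16, 2.48, 4.48 and 1.83 CPM in Kupffer cells, 1.66, 1.73, 0.691 and 1.45 CPM in HSCs and 0, 0, 0 and 0.472 CPM in hepatocytes. Cd3g, the gamma chain, had 8.72 and 17.8 CPM in the ECs labelled WT against 6.06 and 3.55 CPM in those labelled KO, 5.50, 5.09, 5.61 and 1.35 CPM in Kupffer cells, 2.88, 2.11, 0 and 0.346 CPM in HSCs and 0, 0, 0.322 and 0.404 CPM in hepatocytes. Cd3d, the delta chain, had 4.74 and 7.85 CPM in the ECs labelled WT against 3.06 and 1.25 CPM in those labelled KO, 4.29, 1.501, 4.09 and 3.99 CPM in Kupffer cells, 1.54, 0.512, 0 and 0 CPM in HSCs and 0 in all 4 libraries of hepatocytes. Both ECs labelled WT exceeded both labelled KO for each of these 3 neighbouring genes on chromosome 9, and hepatocytes were at or near 0. On the TMM scale 24.5% of all genes tested in ECs lay lower under the KO label without overlap. The coreceptor chains Cd8a and Cd8b1, which mark cytotoxic T cells, were scarcer. Cd8a had 1.05 and 7.30 CPM in the ECs labelled WT against 2.02 and 0 CPM in those labelled KO, 0.537, 0.979, 0.989 and 0 CPM in Kupffer cells, 0.640, 0.512, 0 and 0.207 CPM in HSCs and 0 in all 4 libraries of hepatocytes. Cd8b1 had 1.40 and 4.27 CPM in the ECs labelled WT against 1.04 and 0.209 CPM in those labelled KO, 0.402, 0.261, 0.132 and 0.541 CPM in Kupffer cells, 0.961, 0, 0 and 0.0692 CPM in HSCs and 0 in all 4 libraries of hepatocytes. Only EC WT 38 passed 3 CPM for either chain. The other coreceptor, Cd4, behaved differently and is described with the Kupffer cells.

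Of the surface proteins that tune T cell activation, the adhesion molecule Cd2 had 9.63 and 17.6 CPM in the ECs labelled WT against 8.22 and 4.10 CPM in those labelled KO, 3.29, 7.11, 7.78 and 9.27 CPM in Kupffer cells, 3.91, 3.65, 1.24 and 0 CPM in HSCs and 0, 0, 0.0645 and 0.337 CPM in hepatocytes. Cd5, an inhibitory receptor, had 2.02 and 9.71 CPM in the ECs labelled WT against 1.53 and 0.417 CPM in those labelled KO, 0.805, 1.30, 3.17 and 2.37 CPM in Kupffer cells, 0.640, 0.512, 0.484 and 0 CPM in HSCs and 0 in all 4 libraries of hepatocytes. Its neighbour and relative Cd6 had 14.1 and 4.04 CPM in the ECs labelled WT against 2.65 and 0.278 CPM in those labelled KO, 3.35, 7.63, 3.63 and 4.26 CPM in Kupffer cells, 1.09, 1.22, 2.21 and 3.04 CPM in HSCs and 0 in all 4 libraries of hepatocytes. Cd6 had its highest value in EC WT 34 and not in EC WT 38. The costimulatory receptor Cd28 had 5.09 and 20.8 CPM in the ECs labelled WT against 5.22 and 3.34 CPM in those labelled KO, 7.31, 3.39, 2.90 and 1.96 CPM in Kupffer cells, 5.64, 4.41, 2.28 and 4.36 CPM in HSCs and 0.382, 0.818, 0.322 and 0 CPM in hepatocytes. Il7r, the interleukin 7 receptor that maintains T cells, had 2.09 and 11.7 CPM in the ECs labelled WT against 1.88 and 1.95 CPM in those labelled KO, 2.01, 2.61, 3.17 and 1.35 CPM in Kupffer cells, 1.41, 0.256, 0 and 1.94 CPM in HSCs and 0.319, 0, 0 and 0 CPM in hepatocytes. The libraries of Kupffer cells and ECs overlapped for Cd2, Cd5, Cd28 and Il7r.

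Among the signalling proteins, the kinase Lck (chr4:129548344-129573641) had 23.3 and 63.6 CPM in the ECs labelled WT against 25.8 and 32.1 CPM in those labelled KO, 9.79, 14.2, 11.0 and 4.87 CPM in Kupffer cells, 10.4, 4.61, 2.63 and 0.207 CPM in HSCs and 0.892, 0.546, 0 and 0.270 CPM in hepatocytes. Its EC values overlapped between the labels, and all 4 lay above all other libraries. Lat, the adaptor, had 4.33 and 15.6 CPM in the ECs labelled WT against 2.51 and 1.67 CPM in those labelled KO, 3.29, 4.76, 6.66 and 2.03 CPM in Kupffer cells, 4.10, 1.54, 1.52 and 0 CPM in HSCs and 0 in all 4 libraries of hepatocytes. Zap70, the kinase that acts after Lck, had 18.5 and 25.0 CPM in the ECs labelled WT against 11.4 and 24.8 CPM in those labelled KO, 2.68, 3.46, 3.89 and 6.497 CPM in Kupffer cells, 1.60, 4.29, 0.760 and 0.207 CPM in HSCs and 16.1, 11.0, 28.9 and 20.4 CPM in hepatocytes. It was the member with the highest hepatocyte values, which are taken up again below.

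**Figure D2:**
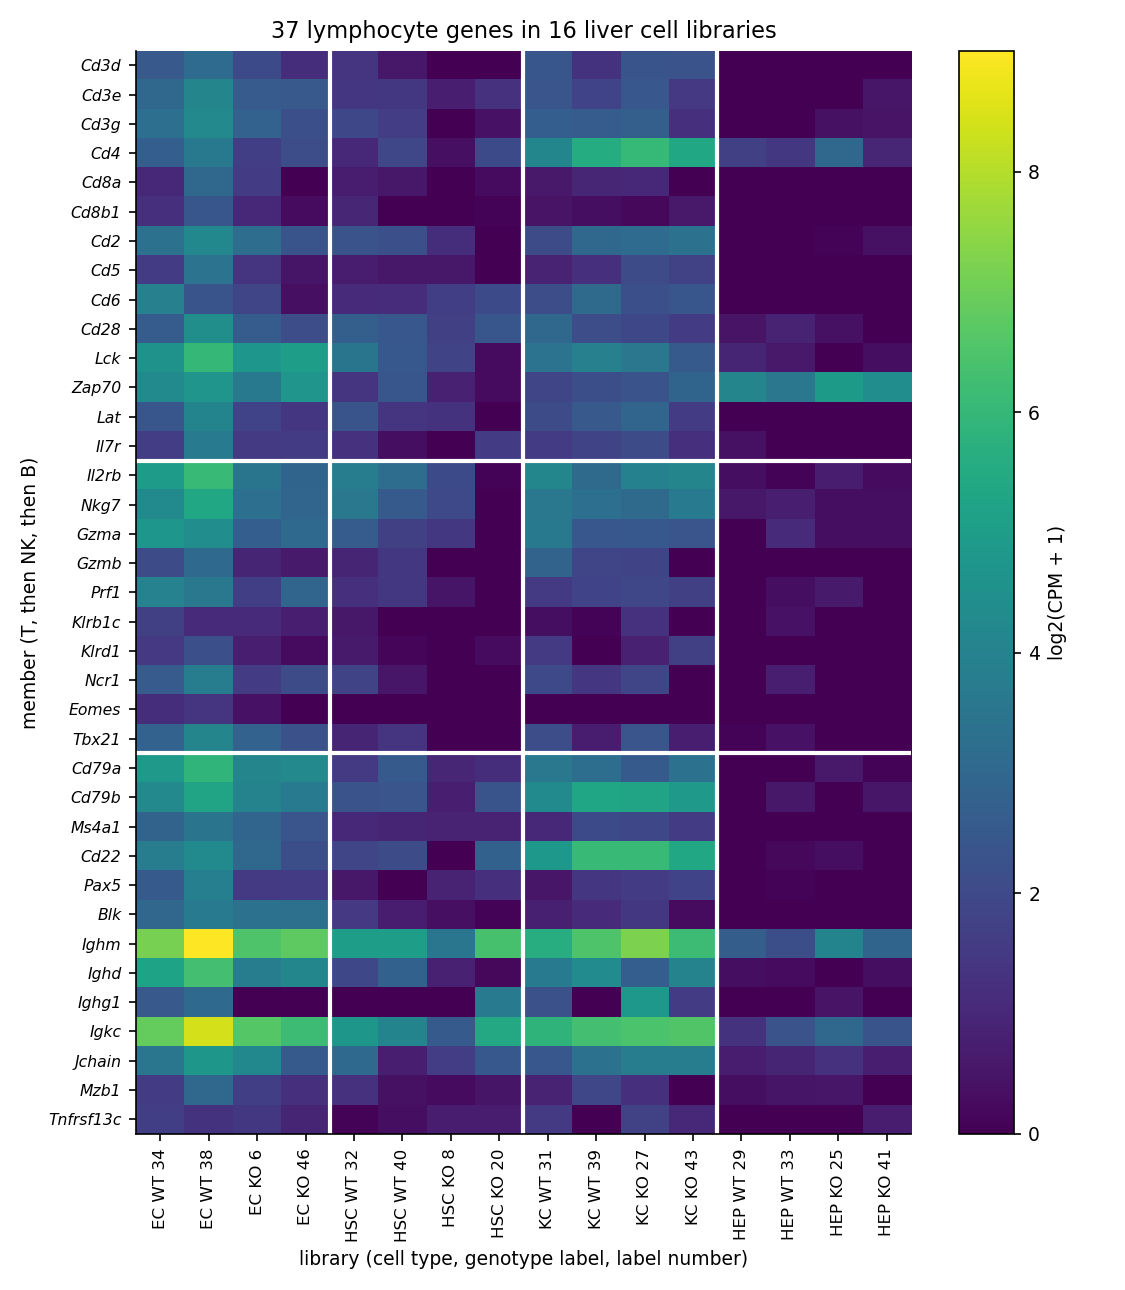
Level of the 37 members as log2(CPM + 1) in the 16 libraries, with T, NK and B cell members from top to bottom and ECs, HSCs, Kupffer cells and hepatocytes from left to right. EC WT 38 was highest for 27 members, whereas Cd4, Cd22 and Cd79b stood out in Kupffer cells and Zap70 in hepatocytes.

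All 10 NK and cytotoxic members had their highest mean in ECs, although the EC libraries overlapped those of Kupffer cells for each of them. Il2rb (ENSMUSG00000068227, chr15:78479256-78495271) had 30.2 and 66.8 CPM in the ECs labelled WT against 10.3 and 6.53 CPM in those labelled KO, 16.6, 7.57, 14.5 and 16.0 CPM in Kupffer cells, 12.7, 8.32, 3.04 and 0.0692 CPM in HSCs and 0.255, 0.0682, 0.645 and 0.202 CPM in hepatocytes. Nkg7, a protein of cytotoxic granules, had 18.7 and 40.2 CPM in the ECs labelled WT against 8.77 and 6.67 CPM in those labelled KO, 11.1, 8.87, 7.72 and 12.1 CPM in Kupffer cells, 11.3, 4.80, 2.97 and 0 CPM in HSCs and 0.510, 0.682, 0.258 and 0.270 CPM in hepatocytes. Gzma, which encodes granzyme A, had 25.7 and 20.4 CPM in the ECs labelled WT against 5.43 and 7.37 CPM in those labelled KO, 11.54, 4.44, 4.62 and 4.13 CPM in Kupffer cells, 5.19, 2.24, 1.73 and 0 CPM in HSCs and 0, 1.09, 0.258 and 0.270 CPM in hepatocytes. Both ECs labelled WT exceeded both labelled KO for these 3 genes, as for 24.5% of all genes tested on the TMM scale. They were the NK members with the most reads. Gzmb, encoding granzyme B, had 3.28 and 7.38 CPM in the ECs labelled WT against 0.905 and 0.556 CPM in those labelled KO, 6.24, 2.68, 2.57 and 0 CPM in Kupffer cells, 0.897, 1.73, 0 and 0 CPM in HSCs and 0 in all 4 libraries of hepatocytes. Prf1, encoding perforin, had 15.0 and 11.3 CPM in the ECs labelled WT against 2.16 and 6.60 CPM in those labelled KO, 1.88, 2.48, 2.77 and 2.23 CPM in Kupffer cells, 1.34, 1.73, 0.415 and 0 CPM in HSCs and 0, 0.273, 0.580 and 0 CPM in hepatocytes. The ECs labelled KO were again the lower pair for both.

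The receptors and transcription factors of NK cells were rarer. Ncr1, which encodes the activating receptor NKp46, had 4.95 and 13.1 CPM in the ECs labelled WT against 2.02 and 3.13 CPM in those labelled KO, 2.95, 1.70, 2.70 and 0 CPM in Kupffer cells, 2.63, 0.448, 0 and 0 CPM in HSCs and 0, 0.682, 0 and 0 CPM in hepatocytes. Klrb1c, which encodes NK1.1, had 2.23 and 1.09 CPM in the ECs labelled WT against 1.11 and 0.695 CPM in those labelled KO, 0.268, 0.0652, 1.45 and 0 CPM in Kupffer cells, 0.512, 0, 0 and 0 CPM in HSCs and 0, 0.341, 0 and 0 CPM in hepatocytes. Klrd1, which encodes CD94, had 1.81 and 3.57 CPM in the ECs labelled WT against 0.696 and 0.209 CPM in those labelled KO, 1.88, 0, 0.791 and 2.30 CPM in Kupffer cells, 0.576, 0.128, 0 and 0.207 CPM in HSCs and 0 in all 4 libraries of hepatocytes. For all 3 receptors at least 6 of the 16 libraries held no read. The T-box factor Tbx21 had 6.14 and 16.2 CPM in the ECs labelled WT against 6.13 and 3.68 CPM in those labelled KO, 3.42, 0.652, 4.15 and 0.677 CPM in Kupffer cells, 0.897, 1.60, 0 and 0 CPM in HSCs and 0.0637, 0.341, 0 and 0 CPM in hepatocytes. Its relative Eomes was read in 3 EC libraries alone, at 1.26, 1.63, 0.348 and 0 CPM in the 4 of them, and was at 0 in the other 12 libraries.

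The immunoglobulin genes carried most of the B cell reads, and Igkc and Ighm were the members with the highest levels per length in ECs, at means of 295 and 113 CPM per kb of exon. Ighm, the heavy chain of IgM, had 142 and 513 CPM in the ECs labelled WT against 91.3 and 109 CPM in those labelled KO, 47.9, 91.5, 149.7 and 71.7 CPM in Kupffer cells, 31.8, 31.0, 10.6 and 83.2 CPM in HSCs and 5.29, 3.48, 15.9 and 6.47 CPM in hepatocytes. Igkc, the constant part of the kappa light chain, had 116 and 343 CPM in the ECs labelled WT against 97.6 and 71.2 CPM in those labelled KO, 57.1, 79.0, 85.7 and 92.9 CPM in Kupffer cells, 26.3, 15.6, 4.84 and 42.3 CPM in HSCs and 1.47, 3.95, 6.96 and 4.04 CPM in hepatocytes. Ighd, the heavy chain of IgD that resting B cells carry beside IgM, had 36.1 and 79.2 CPM in the ECs labelled WT against 13.2 and 16.7 CPM in those labelled KO, 11.8, 19.4, 5.41 and 15.2 CPM in Kupffer cells, 2.88, 6.01, 0.760 and 0.138 CPM in HSCs and 0.255, 0.205, 0 and 0.270 CPM in hepatocytes. All 3 were lower in both ECs labelled KO than in both labelled WT, where 24.5% of all genes tested were on the TMM scale. Ighg1 (ENSMUSG00000076614, chr12:113325240-113330523), the heavy chain of the class-switched IgG1, had 4.67 and 7.54 CPM in the ECs labelled WT against 0 and 0 CPM in those labelled KO, 3.76, 0, 27.1 and 2.03 CPM in Kupffer cells, 0, 0, 0 and 12.0 CPM in HSCs and 0, 0, 0.387 and 0 CPM in hepatocytes. It was at 0 in 9 libraries and was scattered over the others, with KC KO 27 highest. Jchain, the joining chain of secreted IgM and IgA, had 10.6 and 26.3 CPM in the ECs labelled WT against 17.6 and 4.87 CPM in those labelled KO, 4.49, 9.33, 12.9 and 13.1 CPM in Kupffer cells, 7.43, 0.704, 2.14 and 4.56 CPM in HSCs and 0.637, 0.886, 1.42 and 0.674 CPM in hepatocytes. Mzb1, which helps fold immunoglobulin, had 1.95 and 7.22 CPM in the ECs labelled WT against 2.16 and 1.32 CPM in those labelled KO, 0.805, 2.74, 1.38 and 0 CPM in Kupffer cells, 1.41, 0.3199, 0.207 and 0.415 CPM in HSCs and 0.255, 0.409, 0.451 and 0 CPM in hepatocytes. Neither separated the EC labels as the heavy chains of IgM and IgD did, since Jchain and Mzb1 overlapped there.

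The signalling and surface genes of B cells were less abundant. Cd79a (ENSMUSG00000003379, chr7:24897381-24902197), the immunoglobulin alpha chain of the B cell receptor, had 27.4 and 57.7 CPM in the ECs labelled WT against 16.2 and 17.7 CPM in those labelled KO, 11.1, 8.61, 4.88 and 9.41 CPM in Kupffer cells, 1.92, 4.86, 0.968 and 1.24 CPM in HSCs and 0, 0, 0.516 and 0.0674 CPM in hepatocytes. Cd79b (chr11:106311341-106314762), its immunoglobulin beta partner, had 17.8 and 37.1 CPM in the ECs labelled WT against 15.3 and 12.2 CPM in those labelled KO, 19.0, 38.4, 37.5 and 28.0 CPM in Kupffer cells, 3.97, 4.16, 0.691 and 4.08 CPM in HSCs and 0, 0.477, 0 and 0.472 CPM in hepatocytes. Ms4a1, encoding the B cell antigen CD20, had 6.35 and 10.1 CPM in the ECs labelled WT against 6.69 and 4.24 CPM in those labelled KO, 1.07, 3.07, 2.90 and 2.03 CPM in Kupffer cells, 1.02, 0.896, 0.830 and 0.830 CPM in HSCs and 0 in all 4 libraries of hepatocytes. Cd79a and Ms4a1 were highest in ECs with no overlap with any other cell type, which did not hold for Cd79b. Pax5, the factor that sets B cell identity, had 4.81 and 13.8 CPM in the ECs labelled WT against 1.88 and 2.02 CPM in those labelled KO, 0.469, 1.70, 2.04 and 2.50 CPM in Kupffer cells, 0.512, 0, 0.830 and 1.38 CPM in HSCs and 0, 0.0682, 0 and 0 CPM in hepatocytes. Blk, a kinase of B cell receptor signalling, had 6.77 and 12.4 CPM in the ECs labelled WT against 9.26 and 9.04 CPM in those labelled KO, 0.738, 1.11, 1.78 and 0.203 CPM in Kupffer cells, 1.79, 0.640, 0.277 and 0.0692 CPM in HSCs and 0 in all 4 libraries of hepatocytes. Tnfrsf13c, the receptor for the survival factor BAFF, had 2.16 and 1.48 CPM in the ECs labelled WT against 1.74 and 0.904 CPM in those labelled KO, 1.88, 0, 2.37 and 1.02 CPM in Kupffer cells, 0.0640, 0.256, 0.622 and 0.622 CPM in HSCs and 0, 0, 0 and 0.607 CPM in hepatocytes. Blk was as high in the ECs labelled KO as in those labelled WT, and lay above all other libraries there. Cd22, an inhibitory receptor of B cells, had 12.98 and 18.8 CPM in the ECs labelled WT against 7.31 and 3.48 CPM in those labelled KO, 27.0, 65.4, 67.3 and 41.4 CPM in Kupffer cells, 2.69, 3.14, 0 and 6.02 CPM in HSCs and 0, 0.136, 0.258 and 0 CPM in hepatocytes.

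Tests between cell types, made over all 16 libraries with edgeR's quasi-likelihood test, placed 15 of the 37 members higher in ECs and 13 higher in Kupffer cells than in HSCs, 25 lower in hepatocytes, and separated 4 between ECs and Kupffer cells. All 37 members were among the 17214 genes tested, and the threshold was a Benjamini-Hochberg adjusted p-value under 0.05. The labels do not say whether the 2 libraries of a group came from separate mice, nor which libraries of different cell types shared a liver, so the p-values measure only the spread between these samples. No member was lower in ECs or Kupffer cells than in HSCs, and 13.3% of all genes tested passed as higher in ECs and 20.6% as higher in Kupffer cells. The members higher in ECs than in HSCs included Cd79a, with a log2 fold change of 3.53 (SE 0.53, adjusted p = 0.000551) in ECs over HSCs by edgeR, and Ighd, with 4.12 (SE 0.62, adjusted p = 0.000428) by edgeR. Cd79b was higher in Kupffer cells than in HSCs, with a log2 fold change of 3.33 (SE 0.73, adjusted p = 0.00313) by edgeR. The 2 counts against HSCs dropped to 9 and 8 without HSC WT 40 and reached 18 each without HSC KO 8. Between Kupffer cells and ECs, 2 members were higher (Cd4 and Cd22) and 2 lower (Zap70 and Blk) in Kupffer cells, where 14.5% and 17.5% of all genes passed in these directions. Hepatocytes were compared with the mean of the other 3 cell types, and beside the 25 lower members 1 was higher, Zap70, where 33.0% and 27.4% of all genes passed. Cd3d, Gzmb, Klrb1c, Ncr1, Eomes, Tbx21 and Ighg1 could not pass in this fit. They had groups without a read, and standard errors of 3688 to 18373. In hepatocytes, 11 members had no read in any of the 4 libraries, and a count of 0 allows up to 3 counts, that is, 0.191 to 0.205 CPM in these libraries. In libraries labelled WT alone, with 2 libraries per cell type, 6 members were higher in ECs than in HSCs, 2 higher in Kupffer cells than in HSCs, and Zap70 alone differed between Kupffer cells and ECs.

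A few members did not keep company with their partners in Kupffer cells. These genes, and the ratios between them, were chosen after their values had been seen. Cd4 (ENSMUSG00000023274, chr6:124864692-124888221), the coreceptor of helper T cells, had 5.44 and 11.3 CPM in the ECs labelled WT against 2.16 and 3.34 CPM in those labelled KO, 16.4, 46.8, 64.7 and 40.8 CPM in Kupffer cells, 1.02, 2.82, 0.277 and 3.11 CPM in HSCs and 2.29, 1.77, 7.09 and 0.944 CPM in hepatocytes. All 4 Kupffer cell libraries exceeded all 12 others, and the log2 fold change of Kupffer cells over ECs was 3.37 (SE 0.72, adjusted p = 0.00366) by edgeR. The ratio of Cd4 to Cd3e reads lay between 0.437 and 0.757 in the 4 EC libraries and between 3.95 and 22.3 in the 4 Kupffer cell libraries. Cd22 likewise was higher in every Kupffer cell library than in any other library, with a log2 fold change of 2.74 (SE 0.84, adjusted p = 0.0263) over ECs by edgeR. That call was lost without any 1 of the 4 EC libraries, without KC WT 39 and without KC KO 27, with adjusted p-values of 0.0516 to 0.0956 by edgeR, and in libraries labelled WT alone (0.301), although the 4 libraries of each cell type did not overlap. The ratio of Cd22 to Cd79a reads was 0.197 to 0.474 in ECs and 2.44 to 13.8 in Kupffer cells. Cd79b and Cd79a, whose proteins work as a pair, also parted, since their ratio was 0.643 to 0.948 in ECs and 1.72 to 7.69 in Kupffer cells. Cd79b alone did not differ between Kupffer cells and ECs past the threshold, with a log2 fold change of 0.97 (SE 0.66, adjusted p = 0.298) by edgeR, and Cd79a was lower in Kupffer cells by an estimate of -1.34 (SE 0.48, adjusted p = 0.0533) by edgeR, which passed under 6 of 23 alternatives.

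**Figure D3:**
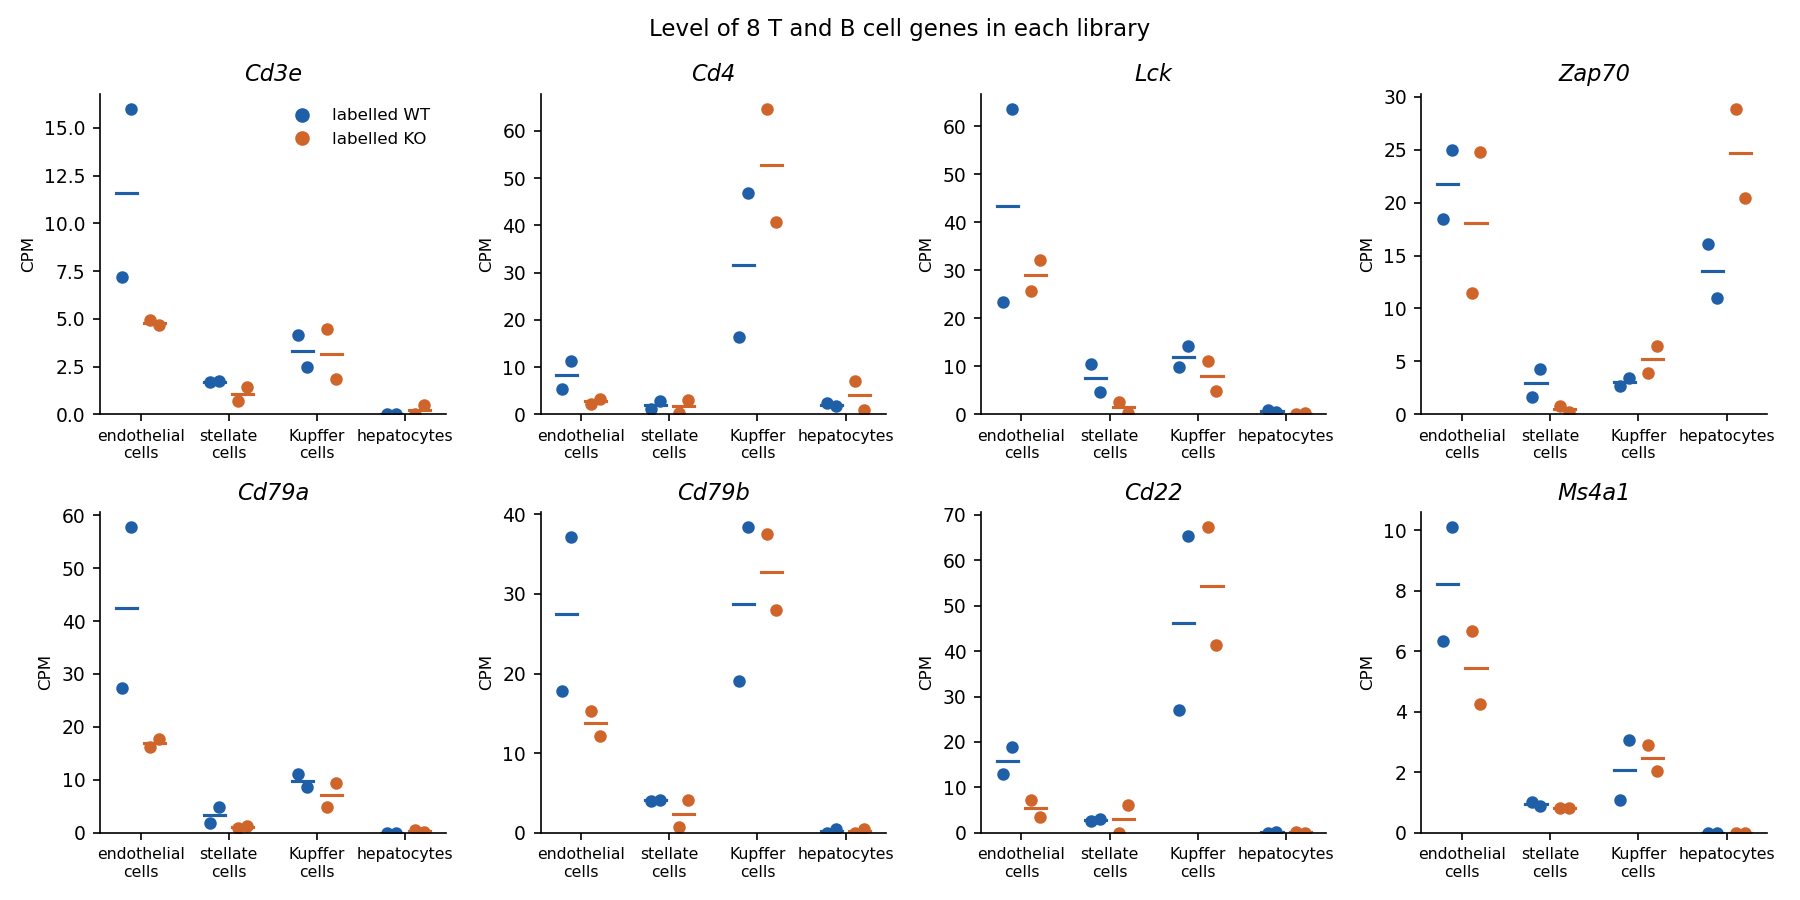
CPM of 8 T and B cell genes in each library, with points for libraries labelled WT or KO, a bar for the mean of each pair and a separate axis from 0 for each gene. Cd4 and Cd22 lay at 16.4 to 64.7 and 27.0 to 67.3 CPM in Kupffer cells, above all other libraries, whereas Cd3e, Cd79a and Ms4a1 were highest in ECs, and Zap70 exceeded Lck in each hepatocyte library.

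Zap70 (ENSMUSG00000026117, chr1:36761798-36782818) was the member that parted from its class in hepatocytes, where it reached 16.1, 11.0, 28.9 and 20.4 CPM. Lck stayed at 0.892, 0.546, 0 and 0.270 CPM in the same libraries and Cd3e at 0, 0, 0 and 0.472 CPM. In the 3 hepatocyte libraries with more than 3 Lck reads, Zap70 had 18.1 to 75.8 reads for each Lck read, against 0.393 to 0.793 in ECs. The log2 fold change of hepatocytes over the mean of the other cell types was 3.17 (SE 0.30, adjusted p = 1.50e-06) by edgeR with TMM, and 2.00 with totals alone, past the threshold under all 23 alternatives. Hepatocytes and ECs overlapped for Zap70 in plain CPM, but on the TMM scale all 4 hepatocyte libraries, at 27.4, 20.6, 52.7 and 41.1, exceeded the 4 EC libraries, at 13.6, 17.4, 7.80 and 18.5. Their order thus depends on the scaling. The processed pseudogene Gm18828 overlaps Zap70 on the opposite strand and was given 4 reads in all 16 libraries together. The lower level of Zap70 in Kupffer cells than in ECs, with a log2 fold change of -2.01 (SE 0.41, adjusted p = 0.00269) by edgeR, held under all 23 alternatives, and that of Blk, with -2.97 (SE 0.76, adjusted p = 0.0142) by edgeR, was lost without KC WT 31 and with WT libraries alone.

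The DNA just before the RefSeq start of 3 of these genes is shown because they followed different cell types, Cd79a ECs, Cd22 Kupffer cells, and Zap70 both ECs and hepatocytes. The letters are from RefSeq on GRCm38.p6, within the 250 bases before the start, without stretches that GENCODE annotates as an exon. They run 5′ to 3′ along the gene's strand, from chr7:24897247-24897380 (+) for Cd79a, chr7:30879029-30879176 (-) for Cd22 and chr1:36761548-36761797 (+) for Zap70, at the first of its 3 starts. The RefSeq start of Cd22 lies inside the gene as GENCODE annotates it (chr7:30865402-30880342), so that its stretch is within that longer gene model. Motifs were searched in all 250 bases, and capitals mark their matches.
Cd79a: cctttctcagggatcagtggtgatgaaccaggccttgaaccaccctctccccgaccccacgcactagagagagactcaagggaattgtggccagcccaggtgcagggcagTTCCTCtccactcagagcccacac
Cd22: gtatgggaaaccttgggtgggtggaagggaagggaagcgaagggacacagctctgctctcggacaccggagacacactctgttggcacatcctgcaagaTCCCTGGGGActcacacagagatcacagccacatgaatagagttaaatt
Zap70: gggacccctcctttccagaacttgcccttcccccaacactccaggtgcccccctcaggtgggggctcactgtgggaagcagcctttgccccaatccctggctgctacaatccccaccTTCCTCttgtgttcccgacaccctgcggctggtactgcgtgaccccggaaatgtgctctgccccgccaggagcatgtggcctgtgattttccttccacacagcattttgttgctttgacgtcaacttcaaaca
The motifs searched on both strands were the PU box GAGGAA, which factors of the PU.1 family bind, TCCC and GGGA spaced by 2 bases for the B cell factor Ebf1, the octamer ATGCAAAT of immunoglobulin promoters, and the hepatocyte motifs CAAAGTCCA of Hnf4a and GTTAAT followed after 1 base by ATT of Hnf1. Cd79a and Zap70 each held the PU box on the reverse strand (TTCCTC), which 23.3% of the 32851 promoters searched hold, and Cd22 held the Ebf1 motif, which 0.779% hold. The octamer was found in 1.60%, and the Hnf4a and Hnf1 motifs in 0.384% and 0.371% of all promoters searched. Of the 37 members, 22 had a promoter in the table. Of these 22, 9 held the PU box in any of their promoters and 1 the Ebf1 motif, and none held the octamer or a hepatocyte motif in this window. The shares above count promoters and not genes. Ighm, Ighd, Ighg1 and Igkc had no promoter among those searched, so the octamer could not be found for them. A match is a run of letters and not a bound site.

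In ECs, the estimates for the KO label against WT lay below 0 throughout the list, but 2 of the 37 members passed the test. Both members that passed by edgeR were lower, where 1.97% of the 14631 genes tested (288 of them) passed as lower and 0.116% as higher. Il2rb was at 30.2 and 66.8 CPM in the ECs labelled WT and at 10.3 and 6.53 CPM in those labelled KO, or 48.5 ± 25.9 against 8.42 ± 2.67 CPM (SD, n = 2), a log2 fold change of -2.53 (SE 0.45, adjusted p = 0.0495) by edgeR. Ighg1 was at 4.67 and 7.54 CPM under the WT label and at 0 in both KO libraries, so that it was at least 29.2-fold lower against the floor of 3 counts per library, with an adjusted p-value of 0.0388 by edgeR. The groups did not overlap for either gene. The estimate was below 0 for all 37 members, against 50.9% of all genes tested, with a median log2 fold change of -1.59 for the members and -0.01 for all genes. Libraries labelled KO lay below both labelled WT on the normalized scale for 30 of the 37 members, and above for none, where 24.5% of all genes lay below and 24.0% above. By class the median was -1.59 for T, -1.88 for NK and -1.39 for B cell members. Some members could not have passed the filter on low counts through the KO pair alone. Among them were Ighg1, which passed the test, and Eomes, Cd8a, Cd8b1, Cd5, Cd6 and Klrd1. The direction of such members was partly set by the filter. An unadjusted p-value under 0.05 was reached by 21 members, all lower, where 10.1% of all genes reached it as lower. This count was 8 without EC WT 38, 11 without EC KO 46 and 4 in the fit over all 16 libraries.

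After Il2rb and Ighg1, the members with the smallest adjusted p-values in ECs were the granule genes Gzma and Nkg7 and the heavy chain Ighd. Gzma had a log2 fold change of -1.84 (SE 0.37, adjusted p = 0.0732), Ighd of -1.93 (SE 0.42, adjusted p = 0.0867) and Nkg7 of -1.93 (SE 0.43, adjusted p = 0.1004), all by edgeR. They were followed by Gzmb, Cd79a, Pax5, Cd22, Lat, Ighm and Igkc, with adjusted p-values of 0.169 to 0.240 by edgeR. Of these, Cd79a had -1.32 (SE 0.39, adjusted p = 0.191), Ighm -1.69 (SE 0.56, adjusted p = 0.236) and Igkc -1.44 (SE 0.48, adjusted p = 0.240) by edgeR. At the other end, Blk had an estimate of -0.06 (SE 0.44, adjusted p = 0.970), Zap70 of -0.24 (SE 0.45, adjusted p = 0.864) and Lck of -0.57 (SE 0.47, adjusted p = 0.637) by edgeR. These 3 kinases and Tnfrsf13c had the 4 smallest estimates in ECs, and were named after their values had been seen.

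The count of members that passed in ECs rested on single libraries and on the genes tested beside them. It rose without EC WT 34, where the count over all genes rose too, and fell without EC WT 38, EC KO 6 or EC KO 46. In these 4 fits the log2 fold change of Il2rb ranged from -2.96 to -1.88. The count of members was 0 when hepatocyte-enriched genes were left out before normalization, and the count over all genes was 0 too. Il2rb kept an estimate of -2.57 there (adjusted p = 0.180 by edgeR). With DESeq2 10 members passed, all lower, where 996 of 23953 genes passed, 859 of them lower. RNA of some other cell types moved with the same labels. The 10 hepatocyte markers summed to 12380 and 25167 CPM in the ECs labelled WT and to 2863 and 2016 CPM in those labelled KO, with 10 of 10 lower without overlap, and the 10 stellate cell markers to 1395 and 1706 against 596 and 881 CPM, also with 10 of 10 lower. Neutrophil sums overlapped between the labels, at 23.9 and 144.8 against 41.4 and 13.4 CPM, with 2 of 10 lower and Ly6g at 0. Mast cell and basophil markers summed to 6.77 and 18.1 against 0.348 and 2.09 CPM, with 2 of 6 lower and Ms4a2 at 0. Monocyte markers summed to 48.3 and 63.9 against 28.0 and 30.0 CPM and plasmacytoid dendritic cell markers to 17.7 and 13.6 against 9.89 and 9.87 CPM, each with 2 of 7 lower. Kupffer cell markers lay the other way, with 9 of 10 higher, at 820.3 and 513 against 1124 and 1148 CPM, as did endothelial markers, with 4 of 10 higher and 1 lower, at 26355 and 20868 against 29899 and 30522 CPM. The sums of platelet, dendritic cell and erythroid markers overlapped between the labels. Of these, 3 of 6 platelet markers were higher and none lower. Of 9 dendritic cell markers 2 were lower and 2 higher, and of 7 erythroid markers 1 was lower and 1 higher. For comparison, 24.5% of all genes tested lay lower and 24.0% higher without overlap on the normalized scale. The part of these cells in the result was not tested.

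**Figure D4:**
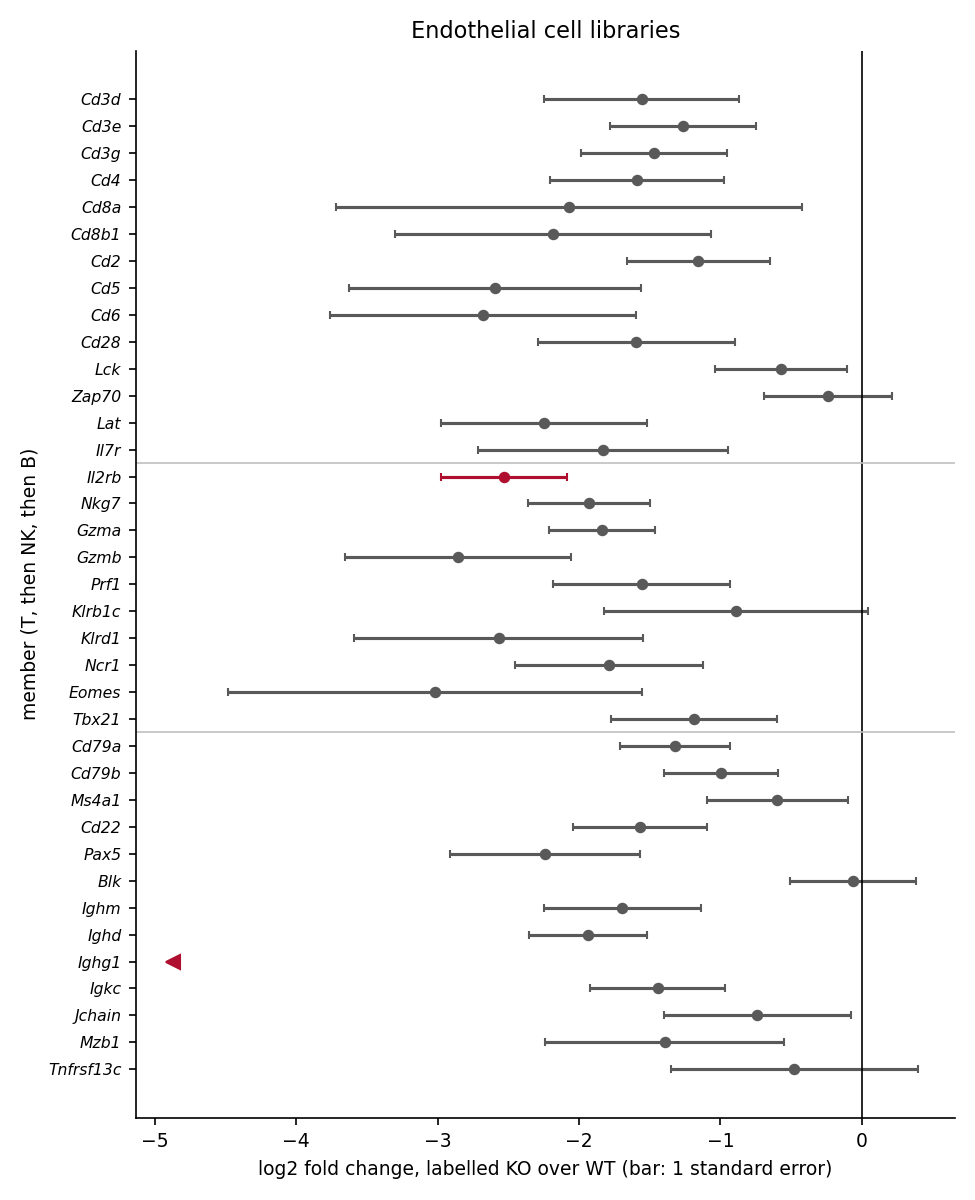
Log2 fold change of the KO over the WT label in ECs for each member, with bars of 1 standard error (4 libraries, edgeR), red where the adjusted p-value was under 0.05. The triangle for Ighg1 stands at the bound set by 3 counts. All 37 estimates lie below 0, with Il2rb and Ighg1 in red and Blk, Zap70, Tnfrsf13c and Lck nearest to 0.

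In the other cell types no member passed, and the share of all genes that passed was 0.00% in each. In HSCs 25 members were among the 14390 genes tested by edgeR, and 4 members, all lower, had an unadjusted p-value under 0.05, where 7.00% of all genes reached it as lower (1259 genes in either direction). DESeq2 called 407 genes and no member there. The HSC estimate was below 0 for 19 of 25 members, against 48.7% of all genes, and for all 6 NK members tested. HSC KO 20 held at most 1 read of each of these 6. They could not have passed the filter on low counts through the KO pair alone, so their direction was partly set by the filter. The same held for other members, among them Cd3g, Cd2, Lat, Lck, Zap70 and Ighd. Pax5, which lay higher under the KO label, could not have passed through the WT pair alone. Gzmb was at 0.897 and 1.73 CPM under the WT label and at 0 in both KO libraries, at least 6.33-fold lower against the floor, and Tbx21 was at 0.897 and 1.60 CPM and at 0, at least 6.02-fold lower. For these members the groups did not overlap, as for 15 of the 25 in this direction and 2 in the other, where 20.6% and 19.9% of all genes did not. Hepatocyte markers moved with the label in HSCs as well, at 3276 and 8012 against 584 and 1559.9 CPM, with 10 of 10 lower, and erythroid markers stood at 299 and 100.3 against 26.9 and 9.68 CPM, with 4 of 7 lower and Slc4a1 at 0. The part of either in the result was not tested.

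In Kupffer cells 34 members were among the 13867 genes tested by edgeR. None of the members had an unadjusted p-value under 0.05, where 5.09% of all genes (706) did, while 75 genes and no member passed with DESeq2. The labels did not overlap for 3 members that lay lower under the KO label (Cd28, Gzmb and Lck) and 6 that lay higher (Cd2, Cd5, Igkc, Jchain, Pax5 and Zap70), where 18.8% and 18.5% of all genes did not. The estimate was below 0 for 14 of 34 members, against 51.5% of all genes, and the median log2 fold change was 0.12 for the members and -0.02 for all genes. Il2rb, which was lower in ECs, was at 16.6, 7.57, 14.5 and 16.0 CPM in Kupffer cells, with the labels overlapping. In hepatocytes 5 members were among the 11548 genes tested, namely Cd4, Zap70, Ighm, Igkc and Jchain. All 5 estimates were above 0, and 2 reached an unadjusted p-value under 0.05, where 2.42% of all genes reached it as higher (821 genes in either direction), with log2 fold changes of 0.92 (SE 0.27, adjusted p = 0.700) for Zap70 and 1.39 (SE 0.49, adjusted p = 0.700) for Ighm by edgeR. DESeq2 called 31 genes and no member. For Zap70, Ighm and Igkc both hepatocyte libraries labelled KO exceeded both labelled WT, as 19.9% of all genes did, and no member lay lower without overlap, where 20.9% of all genes did.

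An interaction fitted over 16 libraries tested whether the labels differed by another amount in ECs than in each other cell type. No member passed for ECs against HSCs, Kupffer cells or hepatocytes, where 0.0349%, 2.07% and 0.0697% of the 17214 genes passed by edgeR. In this fit the 11 members without a read in hepatocytes could not pass against them. Eomes, without a read in HSCs and Kupffer cells, could not pass against either. At an unadjusted p under 0.05 there were 6, 1 and 8 members in these comparisons, where 4.85%, 14.0% and 9.12% of all genes were. With DESeq2 0, 0 and 2 members passed, where 93, 1075 and 599 of 29481 genes passed. The lower lymphocyte RNA under the KO label in ECs is therefore not shown to be particular to them.

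Each library held its own mixture of immunoglobulin classes. Of the reads on 8 heavy chain constant genes, Ighm took the largest share in 15 of the 16 libraries, and Igha, the heavy chain of the mucosal class IgA, took it in KC KO 43 at 45.6% (95% Wilson interval 43.7 to 47.5). Within ECs, Igha varied from 9.02% (7.86 to 10.3) in EC KO 46 to 37.1% (35.4 to 38.9) in EC KO 6. In HSC KO 8 0 of 241 reads fell on it, which by the floor of 3 counts allows a share of up to 1.24%. Ighg3 took 6.47% (5.63 to 7.43) in EC KO 6, against at most 1.14% in the other 3 EC libraries. Ighg1, which was called lower in ECs, took 1.58% (1.25 to 2.01) in EC WT 34 and 0.964% (0.791 to 1.17) in EC WT 38. It had no read in the 2 EC libraries labelled KO, in KC WT 39, in 3 HSC libraries and in 3 hepatocyte libraries, and took 12.3% (11.2 to 13.4) in KC KO 27 and 12.1% (10.5 to 13.8) in HSC KO 20. These intervals cover counting error only, since reads without molecular identifiers are not independent molecules.

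**Figure D5:**
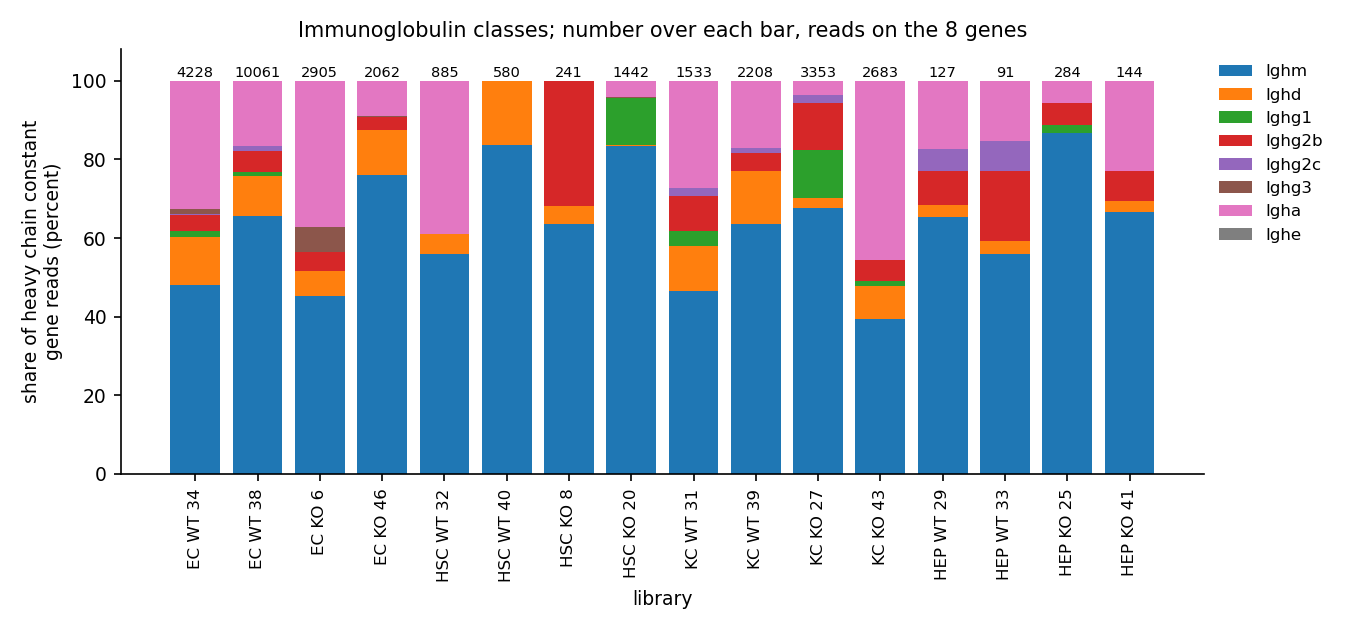
Share of reads on 8 immunoglobulin heavy chain constant genes in each library, in percent, with the number of reads above each bar. The mixture differed between libraries of the same group, with Igha at 37.1% in EC KO 6 and 9.02% in EC KO 46, and Ighg1 at 12.1% in HSC KO 20 and 0 in the other 3 HSC libraries.

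HSC KO 20 departed from the other HSC libraries in this class. It held 142 CPM of the 5 immunoglobulin members, 82.6% of its reads on all members, while its 10 NK members summed to 0.277 CPM with 8 of 10 at 0. The ratio of Ighd to Ighm reads was 0.00166 there, from 2 and 1203 reads, against 0.0719 to 0.194 in the other 3 HSC libraries and 0.144 to 0.255 in ECs. Low ratios occurred elsewhere too, at 0.0361 in KC KO 27 and with 0 Ighd reads beside 246 Ighm reads in HEP KO 25. Of its 265 kappa variable gene reads 56.2% fell on Igkv1-88 and of its heavy variable gene reads 38.2% on Ighv4-1, genes that were named after their values had been seen. In the other 3 HSC libraries the leading heavy variable gene took 32.9%, 35.2% and 37.04%, and the leading kappa variable gene 28.2% and 7.94% in those labelled WT and 57.1% in HSC KO 8, where it was Igkv15-103. Without this library the HSC mean of the B cell sum moved from 82.2 to 57.4 CPM.

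Variable segments of the heavy, kappa and beta chains were read from more genes in each EC and Kupffer cell library than in any HSC or hepatocyte library. From 38 to 72 of 185 heavy chain variable genes had at least 1 read in each EC library, 26 to 44 in Kupffer cells, 6 to 24 in HSCs and 7 to 11 in hepatocytes. For kappa these ranges were 45 to 85 of 160 genes in ECs, 49 to 59 in Kupffer cells, 9 to 35 in HSCs and 9 to 17 in hepatocytes. The most used heavy variable gene took 9.23% to 27.1% of its class in ECs. Those with the most reads over all libraries were Ighv5-17, Ighv5-6 and Ighv7-3 with 202, 181 and 177 reads, Igkv6-13, Igkv8-24 and Igkv1-135 with 369, 274 and 256, and Iglv2, Iglv1 and Iglv3 with 427, 364 and 153. T cell receptor segments were rarer. Of 35 beta variable genes 9 to 15 were read per EC library, 7 to 12 in Kupffer cells, up to 6 in HSCs and none in hepatocytes, led by Trbv13-2, Trbv29 and Trbv1 with 191, 75 and 69 reads. The leading alpha genes Trav15-1-dv6-1, Trav4-1 and Trav5-1 had 16, 12 and 9 reads, the gamma genes Trgv2, Tcrg-V4 and Tcrg-V5 51, 14 and 10, and the delta genes Trdv4, Trdv5 and Trdv2-2 19, 7 and 2. Reads on such near-identical segments are uncertain, since the counter could leave out or split reads that match several of them.

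Other genes of the same cells were read from wider lists. In ECs 1 of 23 other T cell genes tested passed, none of 18 other NK and innate lymphoid genes, none of 27 other B and plasma cell genes and none of 8 pan-leukocyte genes, against the 2.08% of all genes that passed in either direction. The gene that passed was Ccl5, a chemokine of cytotoxic lymphocytes, with 23.7 and 34.6 CPM in the ECs labelled WT against 4.11 and 5.91 CPM in those labelled KO, 14.4, 10.8, 8.90 and 23.6 CPM in Kupffer cells, 4.16, 3.26, 1.52 and 0.968 CPM in HSCs and 0.382, 0.0682, 0.129 and 0.135 CPM in hepatocytes, a log2 fold change of -2.53 (SE 0.39, adjusted p = 0.0367 by edgeR) in ECs. The estimate was below 0 for 20 of 23, 14 of 18, 24 of 27 and 7 of 8 genes of these lists, against 50.9% of all genes tested. The median log2 fold change was -1.32, -1.41, -1.49 and -0.74, against -0.01 for all genes. Before the filter on low counts the lists held 26, 29, 31 and 8 genes. No gene of these lists passed for the label in the other cell types, and Sdc1, a surface proteoglycan of plasma cells and of hepatocytes, passed in the interaction of ECs against Kupffer cells, with a difference of -3.05 in log2 fold change (SE 0.62, adjusted p = 0.0326 by edgeR). Sdc1 had 46.1 and 99.3 CPM in the ECs labelled WT against 21.5 and 11.4 CPM in those labelled KO, 24.1, 43.7, 62.1 and 65.2 CPM in Kupffer cells, 47.9, 47.4, 18.5 and 39.6 CPM in HSCs and 364, 301, 453 and 324 CPM in hepatocytes.

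Laptm5, Lcp1 and Rac2 led the 8 pan-leukocyte genes, which summed to 6018, 5990.5, 6269.5 and 6048 CPM in Kupffer cells, themselves leukocytes, and to 395, 668, 319 and 304 CPM in ECs, and all 8 were higher in Kupffer cells than in ECs past the threshold. Among T cell genes, the adaptor Lcp2 stood at 375, 419, 421 and 517 CPM in Kupffer cells and 136, 123, 195 and 133 CPM in ECs. The chemokine receptor Ccr7 stood at 58.6, 142, 29.2 and 37.5 CPM in ECs and 34.3, 42.1, 32.5 and 43.2 CPM in Kupffer cells. Among NK genes, the signalling adaptor Tyrobp and the integrin Itga1 led the list in Kupffer cells and in HSCs, followed by the receptor Klrk1 at 49.8, 60.6, 45.5 and 59.6 CPM in Kupffer cells. Among B and plasma cell genes, Xbp1, a factor of secretory cells, was read in all 4 cell types at 375 to 892 CPM, and the B cell adaptor Bank1 stood at 199, 294, 252 and 157 CPM in Kupffer cells and 11.4, 19.0, 14.6 and 8.48 CPM in ECs.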

How the data were processed

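RNA-seq was made from ECs, HSCs, Kupffer cells and hepatocytes of mice labelled WT or KO for endothelial Zeb2, with 2 libraries per group and 16 in all. The deposited values were raw read counts per gene. Per the labels and the submitters' processing notes, the authors trimmed reads with Trimmomatic (0.32), aligned them to GRCm38 with HISAT2 (2.1.0) and counted them with HTSeq (0.9.1). The annotation release and the strand setting are not given in the sources used here, and these name 2 library kits, 1 of which marks strand, so reads of overlapping genes on opposite strands may not be told apart (11 members overlap another gene). HTSeq left out reads that match several places, 6463251 to 16500752 per library, which can lower the counts of near-identical receptor genes.

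CPM was computed over the 47729 gene rows, without the 5 summary lines. Depth was 12872706 to 15690506 reads on genes per library, and 3 counts were taken as the floor of detection. Tests were edgeR (4.0.16) quasi-likelihood tests in R (4.3.3) with filterByExpr, TMM factors and Benjamini-Hochberg adjustment over all genes tested, at 0.05. Genotype labels were compared within a cell type over its 4 libraries, and cell types and interactions were fitted over all 16. Steps were tested on simulated data, in which changes of 4-fold were recovered for 49.0% of genes in the EC comparison of labels (14631 genes) and 19.0% in that of Kupffer cells (13867 genes), and of 2-fold for 1% and 0%. Alternatives were DESeq2 (1.42.0), other size factors, no filter on low counts, a threshold of 0.1, leaving out 857 hepatocyte-enriched genes (a mean of at least 10 CPM in hepatocytes labelled WT and at least 8 times the Kupffer cell mean), WT libraries alone, and each library left out in turn. Using totals alone and leaving libraries out of the sums and segment counts were chosen after seeing the data.

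The members and all gene lists were chosen with earlier results of these data known. All 37 members are named with their values in every library. Of other lists, genes past the threshold in a comparison of labels and the 3 with the highest mean were named (1 of these is not reported here), and of receptor segments up to 3 per receptor with the most reads. Gene positions are from the GENCODE annotation of GRCm38, which held 47310 of the 47729 identifiers (99.1%). Promoter letters are from RefSeq on GRCm38.p6. Figures were drawn with matplotlib (3.10.9).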

Additional observations from a re-analysis of the deposited data

How the results depend on the processing

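No paired analysis was possible because no replicate number occurs in more than 1 group. Estimates were recomputed under the alternatives for part of the members only, and none of these changed direction. For the labels in ECs they were Cd3g, Cd79a, Nkg7, Gzma, Prf1, Il2rb, Igkc, Ighg1, Ighm and Ighd. For the labels in HSCs and Kupffer cells and for the interactions there were none, so direction over the whole list was not checked. In ECs, the comparison of labels gave 305 genes and 2 members by edgeR. It gave 529 genes and 4 members at a threshold of 0.1, 996 and 10 with DESeq2, 190 and 0 with totals alone, 1259 and 13 without a filter on low counts, and 0 and 0 without hepatocyte-enriched genes. RLE size factors gave 302 genes and 1 member, and 1 fit over 16 libraries gave 423 genes and 0 members. Leaving out single libraries gave 3 to 688 genes and 0 to 9 members. The adjusted p-value ranged from 2.70e-10 to 0.335 for Il2rb and from 2.27e-08 to 0.429 for Ighg1 over these alternatives.

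In HSCs, DESeq2 called 407 genes, the fit over 16 libraries 178, and the fit without a filter 663 genes and 2 members. In Kupffer cells, DESeq2 called 75 genes and the fit without a filter 159 genes and 1 member, and leaving out single libraries gave 0 to 12 genes. In hepatocytes these were 31 and 227 genes with no member, and 0 to 55 genes. For Kupffer cells against ECs, 8 members passed at 0.1, 7 with totals alone, 9 without a filter and 1 in WT libraries alone (3086 genes). For Kupffer cells against HSCs, 21 passed without a filter, 2 in WT libraries alone (3784 genes) and 8 to 18 with single libraries left out. For ECs against HSCs, 24 passed at 0.1, 23 with DESeq2, 24 without a filter, 6 in WT libraries alone (1985 genes) and 9 to 18 with single libraries left out. For the interaction of ECs with HSCs, Kupffer cells and hepatocytes, 2, 4 and 6 members passed without a filter, and 2 with DESeq2 for hepatocytes. The fits on fewer libraries have less to estimate the spread from, and otherwise the cause was not tested.

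The T, NK and B cell sums of hepatocytes had means of 43.4, 3.15 and 26.0 on the TMM scale and 54.8, 3.96 and 32.7 CPM without hepatocyte-enriched genes in the total. Without immunoglobulin genes the B cell sum had means of 87.6 CPM (ECs), 11.7 CPM (HSCs), 96.9 CPM (Kupffer cells) and 0.929 CPM (hepatocytes). With at least 3 reads required, the mean number of heavy variable genes was 35.75 (ECs), 7.75 (HSCs), 23.5 (Kupffer cells) and 1 (hepatocytes), that of kappa genes 8.5 (HSCs), 33.75 (Kupffer cells) and 3.25 (hepatocytes), and that of beta genes 6.5 (Kupffer cells). With 2 libraries per label and members near 1 CPM, changes of 2-fold were mostly not detectable at this depth and spread.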
